A study of Solanum lycopersicum with 3 samples.

Results

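The youngest miRNAs catalogued for tomato were followed in ovaries in which a repressor of fruit set had been silenced. They were picked by name, as every row of the count table called sly-miR with a miRBase number from that of miR9469 upward. This gave 35 of the 634 mature miRNAs listed and 35 of the 125 known ones. Earlier results of these data were known when the members were chosen. miRBase hands out its numbers in order of submission, so a high number marks a late entry. The members are called young in that sense alone. The members fall into the miR9469 to miR9479 series, with 22 rows from 12 precursors named by arm (5p or 3p), and the miR105xx series, with 13 rows that carry no arm label. A further 69 known miRNAs have numbers under 1000, most of them from families shared across plants, and 21 have numbers from 1000 up to the first member.

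Small RNA was sequenced from unpollinated pre-anthesis ovaries of tomato (Solanum lycopersicum) cv UC82. The AGL6sil ovaries had received 5 µg of dsRNA against AGL6, a MADS-box transcription factor, and the IAA9sil ovaries 5 µg of dsRNA against IAA9, an Aux/IAA protein of auxin signalling, in each case bound to 1 mg of layered double hydroxide particles (LDHs) and injected into the flower pedicel. The ctrl ovaries, labelled WT for wild type, were mock-treated with LDHs and no dsRNA. All buds were emasculated after 6 h and collected after 5 days. Each condition is 1 library made from a pool of ovaries of 1 cultivar, the silencing is transient, and the transcripts of AGL6 and IAA9 were not analysed here. The sample labels describe the ovaries as detached, whereas the treatment text leaves the flowers on the plant. With 1 library per condition no difference below has a replicate check or a test, and each one compares these libraries rather than the conditions. The AGL6sil library had the most counted miRNA reads, 1460919 against 1053000 in IAA9sil and 1038064 in ctrl. It had the fewest clean reads, at 0.857 times those of ctrl, against 0.916 times for IAA9sil.

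Plant miRNAs are cut by DICER-LIKE1 from the stem of a folded transcript as a duplex of 2 short strands, one from each arm, whose 3′ ends overhang by 2 bases. Usually one strand is loaded into ARGONAUTE1 and guides the silencing of matching mRNAs, and the other, the passenger or star strand, is degraded. miRNAs that are young in evolution are found in one species or its close relatives, are typically weakly expressed and often lack a known target. Many arose from inverted duplications, and their hairpins can still pair almost perfectly along the stem. Whether the members are young in evolution was not tested. The count table gives counts alone. The study lists predicted target transcripts for some of the members, and these were not analysed here, so the members are ordered by series and precursor.

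Mature sequences were at hand for 10 of the 35 members, and the other 25 are given by name and count. These 10 are the members that the study lists as differing between AGL6sil and ctrl, so their features describe that selection and not the whole class. They are shown because the arms of miR9475 and miR9476 and the copies of miR9471 can be compared base by base. Each is written 5′ to 3′ with the seed, bases 2 to 8, in capitals.
sly-miR9475-5p: aACGAUCUcuacauuguaggc
sly-miR9475-3p: cUACAAUGuagagaucguuuu
sly-miR9476-5p: uCUAGUCCugcaucuuuuuuu
sly-miR9476-3p: aAAAAGAUgcaggacuagacc
sly-miR9471a-5p: cAGGUGCUcacucagcuaaua
sly-miR9471b-5p: gAGGUGCUcacucagcuaaua
sly-miR9470-5p: uGAAAUCCaugagccuaaacu
sly-miR9472-5p: uUUCAGUAgacguugugaaua
sly-miR9474-5p: uGUAGAAGucaugaauaaaaug
sly-miR10537: aUUUACCCcaaguucguuguc

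The arms of miR9475 pair without a mismatch. In the best ungapped register, 19 positions of the 5p arm face the 3p arm, all 19 are Watson-Crick pairs, and each 3′ end overhangs by 2 bases. The same holds for miR9476, with 19 of 19 facing positions paired and overhangs of 2 bases at both 3′ ends. The 5p arms of miR9471a and miR9471b are identical at 20 of 21 positions and differ by C1G, counted from the 5′ end of miR9471a-5p, so the seed is shared. Reads on these 2 sequences are separated only by their first base, and how the counting treated shorter or mismatched reads is not given in the sources used here, so the split between them is uncertain. Of the 10 sequences, 9 are 21 nt long and miR9474-5p is 22 nt long. The first base is U in 4, A in 3, C in 2 and G in 1, and the GC content runs from 27.3% to 47.6%. Seeds could be compared only with the sequences that the study lists as differing from ctrl, not with all rows. Among 93 mature sequences compared, known and predicted, the only other matches to a member's seed were novel_25 (aACGAUCUucgacuagcaaaagac) and novel_343 (aACGAUCUcuggauaacuuagcgg). These predicted 24 nt sequences share bases 2 to 8 with miR9475-5p and diverge after the seed. novel_25 was counted 280 times in AGL6sil, 156 in IAA9sil and 386 in the ctrl library, and novel_343 46, 19 and 7 times.

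RefSeq's annotation of the assembly SLM_r2.1 names 24 of the 25 precursors, all but that of miR10536. In the order of genes along the chromosomes, MIR9471a and MIR9471b are direct neighbours with no annotated gene between them. MIR9470 and MIR10537, which come from different number series, are also direct neighbours.

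The members together took 9.72% of the counted miRNA reads in AGL6sil (95% Clopper-Pearson interval 9.67 to 9.77), 10.6% in IAA9sil (10.6 to 10.7) and 8.81% in the ctrl library (8.75 to 8.86). These intervals and all others here cover counting error alone. PCR copies of a molecule cannot be recognised without molecular identifiers, so the intervals can be too narrow even for that. The share was highest in IAA9sil, but as a share of the clean reads it was highest in AGL6sil, at 0.555% against 0.409% in IAA9sil. Most of it came from a few sequences. miR10532 alone held 46.8% of the member reads in AGL6sil, 44.8% in IAA9sil and 39.3% in the ctrl library, and without it the members took 5.17%, 5.86% and 5.35% of the counted reads.

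miR10532 was counted 66434 times in AGL6sil, 50179 in IAA9sil and 35913 in the ctrl library, which placed it 5th, 5th and 7th among the 125 known miRNAs. miR9471b-3p followed with 46068, 24814 and 22150 reads and was 7th, 10th and 10th. miR9475-5p had 8728, 10381 and 12230 reads, miR9475-3p 7998, 9398 and 10813, miR9471a-3p 7345, 10006 and 4208, and miR9470-3p 3621, 3120 and 3037. Of these 6, the miR9475 arms had their lowest count in AGL6sil, the library with the most counted miRNA reads. The other 4 had their lowest count in ctrl. The 5 most abundant members held 96.2% of the member reads in AGL6sil, 93.6% in IAA9sil and 93.3% in the ctrl library. Levels are given per mature sequence without division by length, and adapter ligation favours some sequences over others, so orders between miRNAs are orders of read counts.

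The typical member had few reads. Over the 3 libraries the totals of all 35 members ran from 1 to 152526 reads, the highest for miR10532, with a median of 84. The median was 593.5 for the 90 known miRNAs with lower numbers and 58 for the 509 predicted ones. A total of 50 reads was reached by 22 of the 35 members (62.9%) and by 69 of the 90 other known miRNAs (76.7%). At least 1 read was found for 33 members in AGL6sil, 32 in IAA9sil and 33 in the ctrl library, and 30 had a read in all of them.

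**Figure D1:**
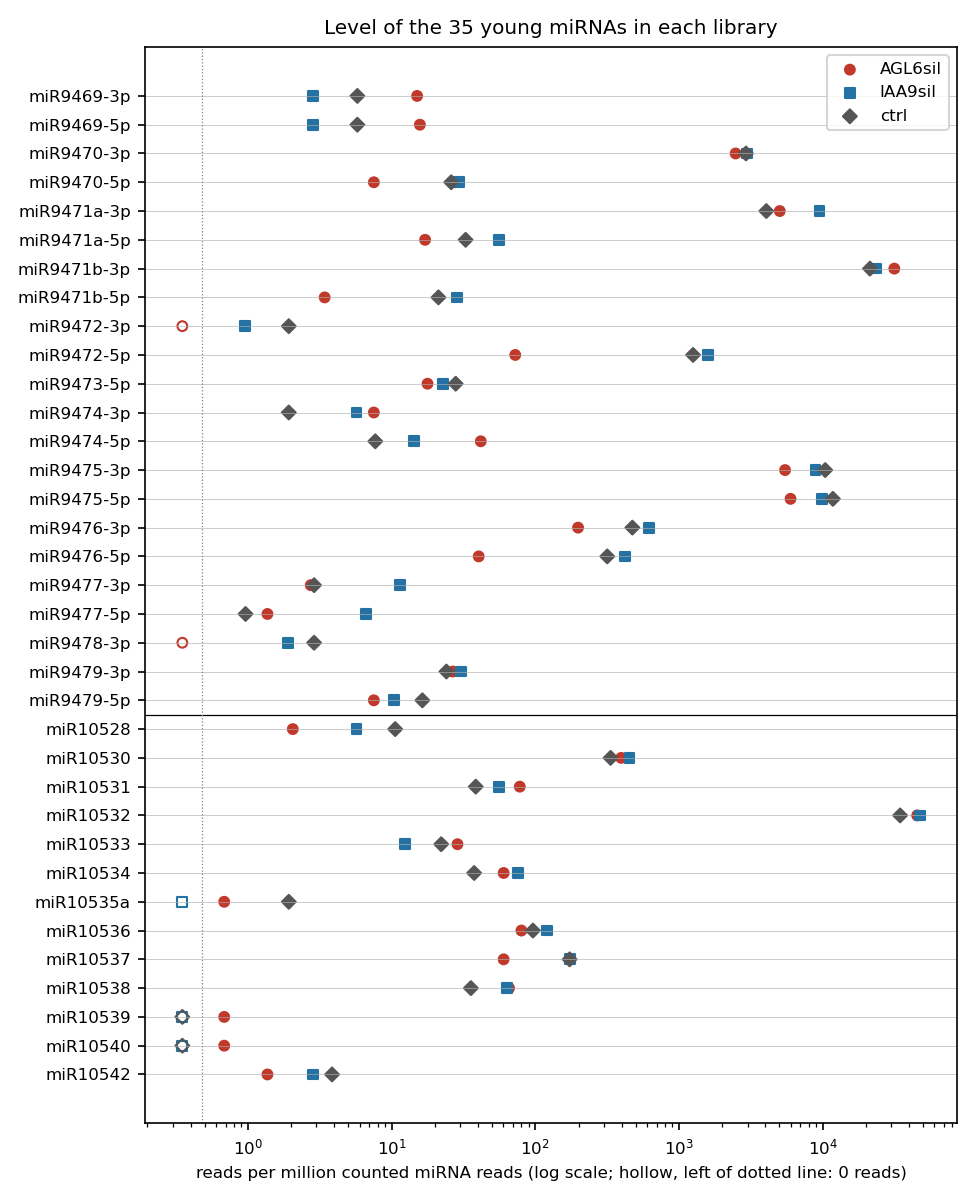
Level of each of the 35 members in the 3 libraries, as RPM of the counted miRNA reads on a log axis, with the miR9469 to miR9479 series above the line and the miR105xx series below it. Hollow symbols left of the dotted line are counts of 0. miR10532 reached 45474 RPM in AGL6sil, 47653 in IAA9sil and 34596 in the ctrl library, and miR9472-5p stood at 72.6 in AGL6sil against 1594 in IAA9sil and 1253 in ctrl.

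The 13 members under 50 reads reached at most 23 counts in AGL6sil, 12 in IAA9sil and 17 in the ctrl library. miR10539 and miR10540 each had 1 read in AGL6sil and 0 in the others. miR10535a had 1 read in AGL6sil, 0 in IAA9sil and 2 in the ctrl library. miR9472-3p had 0, 1 and 2 reads and miR9478-3p 0, 2 and 3. A count of 0 allows up to 3 reads, which is 2.05 RPM in AGL6sil, 2.85 in IAA9sil and 2.89 in the ctrl library, so for these 5 members no difference between libraries was detectable at this depth. The arms of miR9469 had almost equal counts in every library, 22 reads on 3p and 23 on 5p in AGL6sil, 3 and 3 in IAA9sil, and 6 and 6 in ctrl. miR9477-3p was counted 4, 12 and 3 times and miR9477-5p 2, 7 and 1 times, so both arms of this precursor had their highest count in IAA9sil. miR10528 had 3, 6 and 11 reads, miR10542 2, 3 and 4, miR9479-5p 11, 11 and 17, and miR9474-3p 11, 6 and 2.

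To see which members differed in the AGL6-silenced ovaries, counts were scaled by the library median over all 634 miRNAs and compared with ctrl as a log2 ratio. A member was called where its total reached 50 reads and its log2 ratio was 1.5 or more in either direction, a 2.83-fold difference. Of the 22 members with enough reads, 9 were called lower and 1 higher in AGL6sil. Over all 374 miRNAs with enough reads, 13.6% were called lower and 7.75% higher, and over the 69 other known miRNAs these shares were 43.5% and 4.35%. The members' median log2 ratio was −0.85, against −1.29 for the other known miRNAs and −0.12 for all miRNAs. The members thus lay between the other known miRNAs and the whole table.

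miR9472-5p was furthest down. It was counted 106 times in AGL6sil, 1679 in IAA9sil and 1301 in the ctrl library. Its log2 ratio to ctrl was −4.71 (interval −5.01 to −4.42), and it ranked 3rd from the lowest of the 91 known miRNAs with enough reads. Next came miR9476-5p, counted 59, 446 and 329 times, with a log2 ratio of −3.57 (−3.99 to −3.17). miR9471b-5p was counted 5, 30 and 22 times, a log2 ratio of −3.23 (−4.98 to −1.79) that rests on 5 reads. In each of these 3 members the AGL6sil count was below those of IAA9sil and ctrl. AGL6sil was the library with the most counted miRNA reads but the fewest clean reads. These 3 were also the members whose ratio passed −1.5 with all 7 scalings tried. Their log2 ratios lay between −4.71 and −3.23 for miR9472-5p, −3.57 and −2.09 for miR9476-5p, and −3.23 and −1.75 for miR9471b-5p.

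miR9470-5p was counted 11, 31 and 27 times in AGL6sil, IAA9sil and ctrl, a log2 ratio of −2.39 (−3.55 to −1.33). miR10537, the neighbour of MIR9470 and the only miR105xx member called, had 88, 184 and 180 reads and a ratio of −2.12 (−2.51 to −1.75). miR9476-3p, the more abundant arm of its precursor, had 290, 651 and 492 reads and a ratio of −1.85 (−2.07 to −1.64). For these 3 members the raw AGL6sil count was the lowest as well, and their ratios stayed below 0 under every scaling, up to −0.90, −0.64 and −0.37.

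The remaining 3 lower calls lay close to the threshold. miR9475-5p was at −1.58 (−1.62 to −1.54), miR9475-3p at −1.53 (−1.57 to −1.48) and miR9471a-5p, with 25, 59 and 34 reads, at −1.53 (−2.34 to −0.75). With the scaling least favourable to them, the median of the known miRNAs alone, they stood at −0.09, −0.04 and −0.05. The first member outside the threshold was miR9473-5p, with 26, 24 and 29 reads and a ratio of −1.25 (−2.07 to −0.43).

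miR9474-5p was the only member called higher. It was counted 61 times in AGL6sil, 15 in IAA9sil and 8 in the ctrl library, a log2 ratio of 1.84 (0.77 to 3.12), and its value was between 1.84 and 3.32 over the scalings. The other arm, miR9474-3p, had too few reads for a call. Its ratio of 1.37 (−0.83 to 4.58) had the same sign but an interval that included 0.

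The 12 members without a call had log2 ratios from −1.25 to 0.42. They include miR10532 at −0.20 (−0.22 to −0.18), miR9471b-3p at −0.03 (−0.06 to −0.01), miR9471a-3p at −0.29 (−0.34 to −0.23) and miR9470-3p at −0.84 (−0.91 to −0.77). For these 4 the direction depends on the scale. With the median of the known miRNAs alone they were above 0, at 1.28, 1.45, 1.20 and 0.65. miR10531 at 0.42, miR10538 at 0.29 and miR10534 at 0.08 were above 0 under every scaling, and their intervals with the library median included 0. Over the 22 members, 13 kept their sign in AGL6sil under all 7 scalings, 9 of them lower and 4 higher, and 9 did not. The other scalings moved every log2 ratio in AGL6sil upwards by 0.09 to 1.48. The split was 9 lower and 1 higher with the library median, 3 and 4 with the median of the known miRNAs, and 3 and 3 when the clean reads set the scale.

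**Figure D2:**
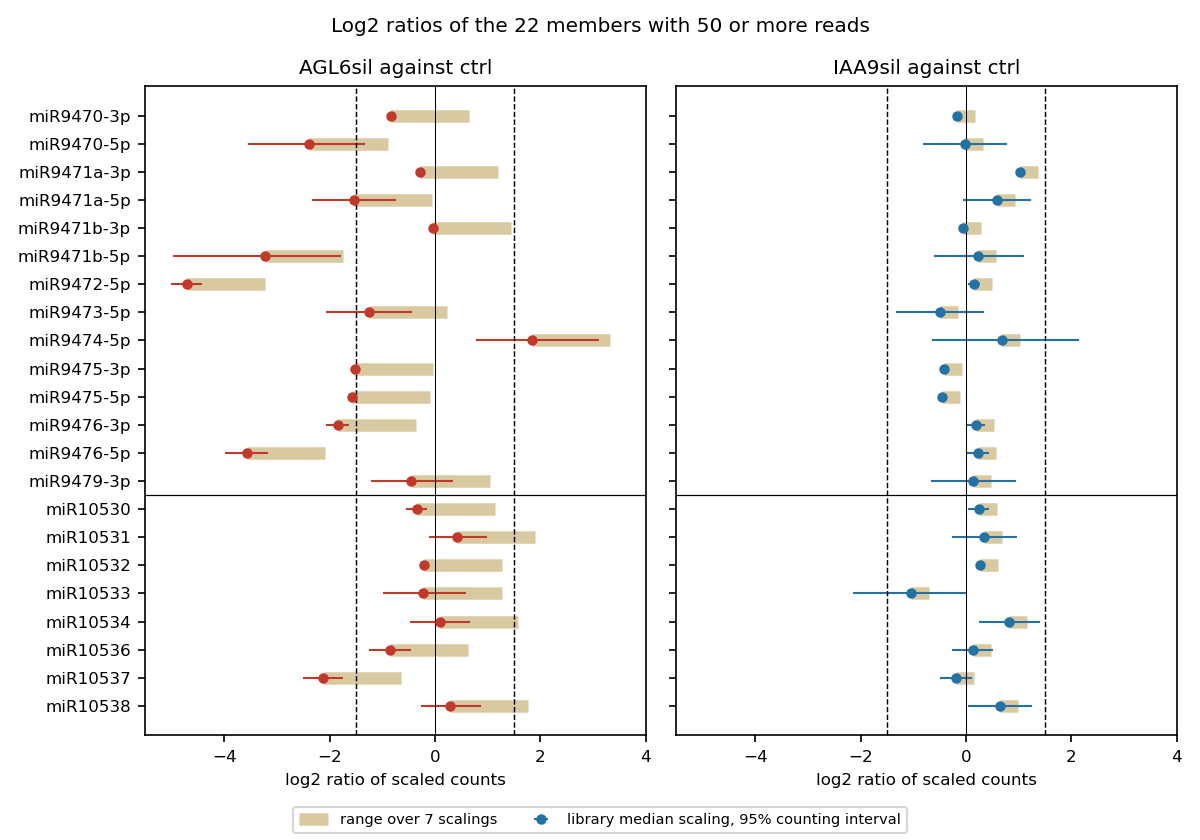
Log2 ratios to ctrl of the 22 members with 50 or more reads, in AGL6sil (left) and IAA9sil (right). Points are ratios scaled by the library median with 95% counting intervals, pale bars give the range over 7 scalings, and dashed lines mark 1.5. In AGL6sil 9 points lie past the lower line and 1 past the upper one, and in IAA9sil none lies past either.

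The arms of a precursor are counted in the same library, so their ratio needs no scaling. Both arms are listed for 10 of the member precursors, and 5 of these, miR9470, miR9471a, miR9471b, miR9475 and miR9476, had at least 50 reads on each arm over the libraries. The arm with fewer reads in total is called the minor arm here. In these 5 the same arm also had fewer reads in ctrl alone. The total includes AGL6sil, so an arm that is low there is more readily the minor one. Among the other known precursors, miR166c-5p is minor by total but made up 53.0% of its precursor's reads in ctrl. In AGL6sil the odds of the minor arm were lower than in ctrl in 4 of the 5, with counting intervals that excluded equal odds, and higher in 0. Over the 11 other known precursors with enough reads on each arm, the minor arm was lower in 63.6% and higher in 36.4% by the same rule. All 11 thus differed in arm balance, against 4 of the 5 member precursors. In IAA9sil the minor arm was lower in 0 and higher in 0 of the 5, against 36.4% and 45.5% of the other 11. The minor arms of miR9470, miR9471a and miR9471b had only 27, 34 and 22 reads in ctrl, fewer than most of the other 11. Small changes in those precursors could therefore not be seen. In AGL6sil against IAA9sil the minor arm was lower in 4 and higher in 0 of the 5, against 63.6% and 36.4%.

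In miR9476 the 5p arm made up 16.9% of the reads of both arms in AGL6sil (interval 13.1 to 21.3), 40.7% in IAA9sil (37.7 to 43.6) and 40.1% in the ctrl library (36.7 to 43.5). The log2 ratio of its odds in AGL6sil to ctrl was −1.72 (−2.19 to −1.25). In miR9470 the 5p share was 0.303% in AGL6sil (0.151 to 0.541), 0.984% in IAA9sil (0.669 to 1.39) and 0.881% in the ctrl library (0.581 to 1.28). In both precursors the IAA9sil and ctrl intervals overlapped and the AGL6sil interval lay below them.

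In miR9471b the 5p share was 0.0109% in AGL6sil (0.0035 to 0.0253), 0.121% in IAA9sil (0.0815 to 0.172) and 0.0992% in the ctrl library (0.0622 to 0.150), and the log2 ratio of the odds in AGL6sil to ctrl was −3.19 (−4.95 to −1.76). In miR9471a it was 0.339% (0.220 to 0.500), 0.586% (0.447 to 0.755) and 0.802% (0.556 to 1.12), a log2 ratio of −1.25 (−2.05 to −0.46). Both miR9471 copies were thus almost entirely read as 3p, and the little 5p signal they had was lowest in AGL6sil.

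In miR9475 the arms were nearly balanced in every library, with a 5p share of 52.2% in AGL6sil (51.4 to 52.9), 52.5% in IAA9sil (51.8 to 53.2) and 53.1% in the ctrl library (52.4 to 53.7). The log2 ratio of the odds of its minor arm, 3p, in AGL6sil to ctrl was 0.05 (−0.01 to 0.11), so a change of arm balance as large as that of the other 4 lies far outside the interval. miR9475 and miR9476 share the perfect pairing of their arms shown above, yet miR9476 had unequal arms and miR9475 did not. miR9472 was at the other extreme, with 3p reads making up 0 of 106 in AGL6sil, 1 of 1680 in IAA9sil and 2 of 1303 in ctrl.

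**Figure D3:**
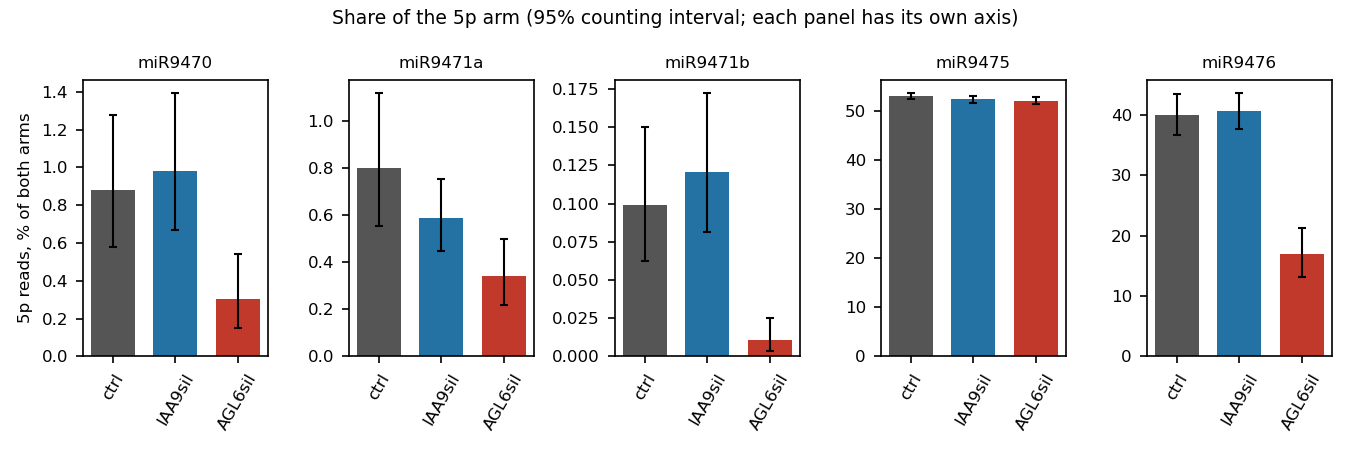
Share of 5p reads among the reads of both arms, in percent, for the 5 member precursors with 50 or more reads on each arm. Bars are single libraries, error bars are 95% Clopper-Pearson intervals, and each panel has its own axis from 0. The AGL6sil bar is the lowest in each panel, at 16.9% against 40.1% in ctrl for miR9476 and at 52.2% against 53.1% for miR9475.

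The neighbouring copies miR9471a and miR9471b did not keep a constant ratio. Of the 3p reads on both, miR9471a took 28.7% in IAA9sil (28.3 to 29.2), 13.8% in AGL6sil (13.5 to 14.0) and 16.0% in ctrl (15.5 to 16.4). The log2 ratio of these odds was 1.09 in IAA9sil against ctrl (1.03 to 1.14) and −0.25 in AGL6sil against ctrl (−0.31 to −0.19). On the 5p arm, miR9471a took 83.3% of 30 reads in AGL6sil (65.3 to 94.4), 66.3% of 89 in IAA9sil (55.5 to 76.0) and 60.7% of 56 in ctrl (46.8 to 73.5), and these intervals overlapped. The copy with more 3p reads, miR9471b, was thus the one with fewer 5p reads in all 3 libraries. How the counting divided reads between the 3p sequences of the copies is not given in the sources used here, and this comparison was added after the values were seen.

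In the IAA9-silenced ovaries 0 of the 22 members passed the limits in either direction. Over all 374 miRNAs 4.55% were called lower and 2.41% higher there, and over the 69 other known miRNAs 8.70% and 0%. The members' median log2 ratio was 0.17, with 14 above 0 and 8 below, against −0.15 for the other known miRNAs and −0.04 for all miRNAs. The same ctrl library enters both comparisons, so its own deviations are shared by the AGL6sil and IAA9sil values.

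The member furthest up in IAA9sil was miR9471a-3p, at a log2 ratio of 1.03 (0.98 to 1.09), which ranked 88th from the lowest of the 91 known miRNAs. miR10534, with 80 reads against 39, was at 0.82 (0.25 to 1.41) and miR10538, with 67 against 37, at 0.64 (0.04 to 1.26). The lowest was miR10533, counted 42 times in AGL6sil, 13 in IAA9sil and 23 in the ctrl library, at −1.04 (−2.14 to 0.00). The miR9475 arms were slightly lower, at −0.45 (−0.49 to −0.41) for 5p and −0.42 (−0.46 to −0.38) for 3p, and stayed below 0 under every scaling. The members that stood lowest in AGL6sil were close to ctrl here, with miR9472-5p at 0.15 (0.05 to 0.26), miR9476-5p at 0.22 (0.01 to 0.43) and miR9471b-5p at 0.23 (−0.61 to 1.10). Over the 7 scalings 18 of the 22 members kept their sign in IAA9sil, 14 higher and 4 lower. None passed the threshold under any of them.

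Set directly against IAA9sil, AGL6sil had 7 of the 22 members called lower and 0 higher. Over all miRNAs these shares were 12.8% and 8.56%, and over the other known miRNAs 36.2% and 5.8%. The 7 were miR9472-5p at −4.86 (−5.16 to −4.58), miR9476-5p at −3.79 (−4.21 to −3.40), miR9471b-5p at −3.46 (−5.18 to −2.08), miR9470-5p at −2.37 (−3.51 to −1.34), miR9471a-5p at −2.11 (−2.85 to −1.42), miR9476-3p at −2.04 (−2.25 to −1.84) and miR10537 at −1.94 (−2.32 to −1.56). The miR9475 arms, at −1.12 for 5p and −1.11 for 3p, were not among them, and miR9474-5p stood at 1.15 (0.32 to 2.07). This comparison uses the same AGL6sil library as the one against ctrl and is not separate evidence.

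The medians of the number series lay further apart in AGL6sil than in IAA9sil. Of the 14 members of the miR9469 to miR9479 series with enough reads, 8 were called lower and 1 higher, with a median log2 ratio of −1.53. Of the 8 members of the miR105xx series, 1 was called lower and 0 higher, with a median of −0.21. The medians were 1.32 apart on the log2 scale, a distance that no scaling changes. Part of it goes with the arms. With only the more abundant arm of each precursor kept, a choice made after the values were seen, 3 of 9 in the first series and 1 of 8 in the second were lower, and the medians were −0.84 and −0.21, a distance of 0.62. Among the other known miRNAs counted in this way 21 of 58 were lower, with a median of −1.02. miR9472-5p, miR9475-5p and miR9476-3p are the 3 that remained in the first series. With 9 and 8 sequences from 1 library a condition, this distance was not tested.

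In IAA9sil the medians were 0.15 and 0.25, and the series were called in 0 of 14 and 0 of 8. Among the other known miRNAs in AGL6sil, those numbered under 1000 had a median of −1.46, with 25 of 53 called lower and 3 higher, and those from 1000 up to the first member a median of −0.38, with 5 of 16 lower and 0 higher. With all listed arms counted, the miR9469 to miR9479 series was thus near the low numbers and the miR105xx series near the middle ones. The median did not fall or rise steadily with the number. With 1 arm per precursor the first series was at −0.84, and medians of the lower number classes were not computed in that way.

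By depth the series were alike in the share of sequences that reached 50 reads and differed at the top. Totals under 10 reads were found for 2 of 22 in the first series and 4 of 13 in the second. Reads in all 3 libraries were found for 20 of 22 and 10 of 13. A total of 50 reads was reached by 14 of 22 in the first series (63.6%) and 8 of 13 in the second (61.5%), and the median totals were 81.5 and 200 reads. In the miR105xx series miR10532 held 98.3% of the reads in AGL6sil, 98.0% in IAA9sil and 97.9% in the ctrl library, and after it came miR10530, counted 579, 476 and 347 times. In the first series the most abundant sequence, miR9471b-3p, held 61.9% in AGL6sil, 40.9% in IAA9sil and 40.5% in the ctrl library. Of all counted miRNA reads, the miR105xx series took 4.62% in AGL6sil (4.59 to 4.66), 4.86% in IAA9sil (4.82 to 4.90) and 3.54% in the ctrl library (3.50 to 3.57). The miR9469 to miR9479 series took 5.10% (5.06 to 5.13), 5.77% (5.72 to 5.81) and 5.27% (5.23 to 5.32). On this scale the first series was lowest in AGL6sil, and the second lowest in ctrl. As a share of the clean reads, which include other small RNAs, the first series was highest in AGL6sil, at 0.291% against 0.183% in ctrl.

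Of the 13 miR105xx members 5 had under 50 reads. Among the others, miR10536 had 117, 127 and 100 reads in AGL6sil, IAA9sil and ctrl, miR10531 114, 59 and 40, miR10538 96, 67 and 37, and miR10534 88, 80 and 39. For each of these and for miR10530 the unscaled ctrl count was the lowest of the 3 libraries. Scaled by the library median, miR10536 at −0.86 (−1.26 to −0.46) and miR10530 at −0.35 (−0.55 to −0.16) were below ctrl in AGL6sil. These directions depend on the scale, with 0.62 and 1.13 for the median of the known miRNAs alone. The AGL6sil ratios of miR10531, miR10538 and miR10534 were above 0, with intervals that included 0. In the first series miR9479-3p, with 39, 32 and 25 reads, also had its lowest count in ctrl, at log2 ratios of −0.45 (−1.21 to 0.34) in AGL6sil and 0.14 (−0.66 to 0.96) in IAA9sil.

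**Figure D4:**
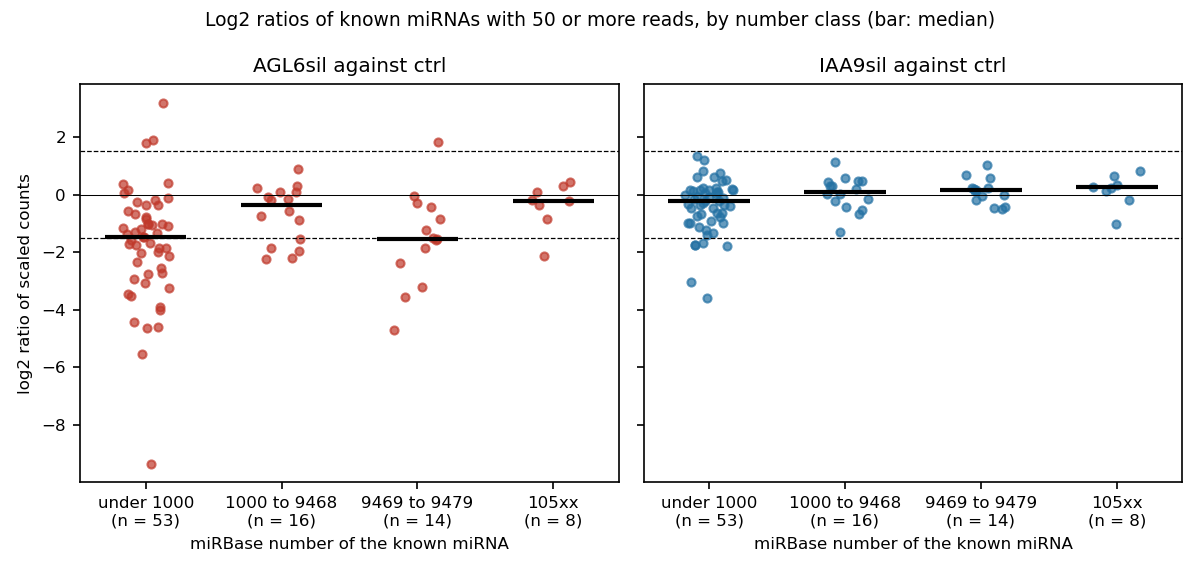
Log2 ratios to ctrl of the 91 known miRNAs with 50 or more reads, by class of miRBase number, in AGL6sil (left) and IAA9sil (right), scaled by the library median. Points are mature miRNAs, bars are class medians and dashed lines mark 1.5. In AGL6sil the medians are −1.46, −0.38, −1.53 and −0.21 from the lowest to the highest numbers, and in IAA9sil the medians of the young series are 0.15 and 0.25.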

How the data were processed

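Small RNA of 3 pools of tomato ovaries was analysed, 1 library per condition, with conditions taken from the sample titles. The deposited values are counts of reads per mature miRNA, which the authors obtained by mapping cleaned reads of 18 to 30 nt with Bowtie and matching them to miRBase or to predictions of miREvo and mirdeep2, without normalization. Bowtie's version and the genome build are not given in the sources used here. The members and lists were chosen with earlier results of these data known. The study scaled by median values and used a limit of 50 reads and a log2 threshold of 1.5 without naming the rows behind the median. Here the median was taken over all 634 rows and the read limit was applied to unscaled totals, so calls near the limit can differ. A count of 0 was taken at 3 reads, and no ratio was formed where both counts were 3 or fewer. Intervals of ratios are 95% Clopper-Pearson intervals computed from both counts, and those of odds are exact conditional ones. The named miRNAs are all members with 50 or more reads, partner arms, members with a 0, and miRNAs sharing a member's seed. The others were named after their values were seen. No test was made. The functions were tested on simulated data. Python 3.11.15, scipy 1.17.1, R 4.3.3, edgeR 4.0.16 and DESeq2 1.42.0 (the latter 2 for scaling only) were used.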

Additional observations from a re-analysis of the deposited data

How the results depend on the processing

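With 1 library per condition, depth and pool-to-pool variation cannot be told apart from the treatment, and for the 5 members with a count of 0 no difference was detectable. The scaling decides most of the split in AGL6sil. The members called lower and higher against ctrl were 9 and 1 with the library median, 3 and 4 with the median of the known miRNAs, 5 and 1 with total reads, 3 and 3 with the clean reads and 3 and 2 without scaling. The median of ratios and TMM gave 6 and 1. Requiring the counting interval to lie past the threshold left 6 and 0. Requiring 50 reads in the larger library of the pair left 6 and 1, and miR9471b-5p, with 5 and 22 reads, was not among them. With 1 arm per precursor, an alternative chosen after seeing the data, 4 of 17 were lower and 1 higher, against 21 and 3 of 58 other known miRNAs.

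The members' median log2 ratio in AGL6sil was −0.85, and became 0.63 with the median of the known miRNAs, −0.69 with TMM, −0.25 with the total count, 0.46 with the clean reads, 0.24 without scaling, −0.59 with 50 reads required in the larger library and −0.35 with 1 arm per precursor. In IAA9sil the median of 0.17 became 0.37 with the median of the known miRNAs, 0.37 with the total count, 0.51 with the clean reads and 0.39 without scaling. The count of 0 calls there became 1 lower and 1 higher at a log2 ratio of 1, and 0 lower and 2 higher without a read limit. Against IAA9sil, the 7 lower and 0 higher calls in AGL6sil became 3 and 2 with the median of the known miRNAs, the clean reads or no scaling, 7 and 1 with the total count, 10 and 2 without a read limit, 10 and 1 at a log2 ratio of 1, and 3 and 0 with 1 arm per precursor.

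The members' share of 9.72% in AGL6sil, 10.6% in IAA9sil and 8.81% in ctrl became 10.2%, 11.0% and 9.08% of the reads on known miRNAs, 0.555%, 0.409% and 0.306% of the clean reads, and 5.17%, 5.86% and 5.35% without miR10532. The order of the libraries thus changed with the denominator. Detection at 10 reads gave 25, 24 and 23 members. In AGL6sil against ctrl the minor arm was lower in 4 and higher in 0 of 5 member precursors with 50 reads on each arm, and in 4 and 0 of 7 with 20 reads, where it was lower in 8 and higher in 4 of 13 other known precursors. No called member changed sign under any scaling or with a pseudocount of 1. No paired analysis was possible because each condition has 1 library.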
